A study of Homo sapiens with 6 samples.

Results

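The genes described here encode inhibitors of cyclin-dependent kinases (CDKs), the p53 ubiquitin ligase MDM2 and the retinoblastoma protein RB1. Of the 9 genes listed by symbol (CDKN1A, CDKN1B, CDKN1C, CDKN2A, CDKN2B, CDKN2C, CDKN2D, MDM2 and RB1), 7 were measured, each by 1 probe set, among 15669 genes and 16965 probe sets. CDKN2A and CDKN2C are not analysed here. The set was put together with results of these arrays in view, because the CDKN1A level differed strongly between hairpins. CDKN1A is therefore described without a test, and for the other 6 genes the difference between hairpins is described without a test.

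The arrays measured total RNA of MDA-MB-231, an established triple-negative breast cancer line of mesenchymal type. The cells carried a lentiviral hairpin, either the control shNCT or 1 of 2 that target S100A10 mRNA (shS100A10_1 and shS100A10_5). Each of the 3 groups had 2 arrays. Every group was kept under 2.5 µg/ml puromycin in RPMI medium holding 10% fetal bovine serum, so the viral vector and the selection are shared by the controls. Whether the 2 arrays of a group stem from separate cultures, and whether cells were cloned, is not in the labels, so p-values here cover only array-to-array spread, possibly technical.

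CDK inhibitors hold cyclin-CDK complexes in check. The CIP/KIP family (CDKN1A, CDKN1B and CDKN1C, encoding p21, p27 and p57) binds a broad range of cyclin-CDK complexes, whereas the INK4 family (CDKN2A to CDKN2D) binds CDK4 and CDK6 and keeps D-type cyclins from activating them. Active G1 kinases phosphorylate RB1 and so release the E2F factors that drive S-phase genes. CDKN1A and MDM2 are classical transcriptional targets of p53, and MDM2 in turn marks p53 for degradation. MDA-MB-231 is known to carry mutant p53 and to have lost the CDKN2A locus.

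Promoter windows from RefSeq (GRCh38.p14, 250 bases before to 50 after a gene start) were matched by symbol for 6 of the 7 measured genes, in 9 windows. The windows of CDKN1A, CDKN2D and MDM2 are shown because these genes had the largest differences from shNCT with shS100A10_5. Capitals mark GC boxes (GGGCGG on either strand) in the windows of CDKN1A (chr6:36678464-36678763, plus strand) and CDKN2D (chr19:10568930-10569229, minus strand). In the window at the downstream gene start of MDM2 (chr12:68808767-68809066, plus strand), which lies at the promoter known to respond to p53, capitals mark an AP-1 site (TGACTCA on either strand).
CDKN1A: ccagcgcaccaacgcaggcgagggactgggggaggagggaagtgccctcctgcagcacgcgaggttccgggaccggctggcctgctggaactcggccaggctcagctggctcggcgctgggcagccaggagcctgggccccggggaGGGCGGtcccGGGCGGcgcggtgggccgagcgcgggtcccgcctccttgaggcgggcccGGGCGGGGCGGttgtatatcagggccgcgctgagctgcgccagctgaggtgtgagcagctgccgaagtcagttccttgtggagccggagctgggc
CDKN2D: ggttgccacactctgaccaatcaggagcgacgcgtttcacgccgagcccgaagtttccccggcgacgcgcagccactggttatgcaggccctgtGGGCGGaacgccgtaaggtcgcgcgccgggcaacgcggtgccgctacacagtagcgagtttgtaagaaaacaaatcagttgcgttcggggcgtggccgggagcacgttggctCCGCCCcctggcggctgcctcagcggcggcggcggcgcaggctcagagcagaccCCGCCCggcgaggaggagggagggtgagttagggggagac
MDM2: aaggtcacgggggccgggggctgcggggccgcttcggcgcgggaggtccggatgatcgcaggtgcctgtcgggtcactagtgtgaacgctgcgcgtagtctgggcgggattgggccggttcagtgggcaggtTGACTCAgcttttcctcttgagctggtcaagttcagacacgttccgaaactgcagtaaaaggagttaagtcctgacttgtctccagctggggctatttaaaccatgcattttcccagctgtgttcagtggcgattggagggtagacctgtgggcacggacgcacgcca
The CDKN1A window held 4 GC boxes, at 104, 94, 45 and 40 bases before the gene start, the last 2 overlapping. The CDKN2D window held 3, that of CDKN2B 2, that of CDKN1B 1, each MDM2 window 1 and that of RB1 0. The GC box of the MDM2 window shown is left in small letters. Of 35116 windows of the same length, 45% held at least 1. The AP-1 site of the MDM2 window lay 118 bases before that gene start, and 4.95% of all windows held such a site. GC content was 74.3% for CDKN1A, 68% for CDKN2D and 59.7% for this MDM2 window, against a median of 58.7%. The windows of CDKN1A, CDKN1B, CDKN2B and CDKN2D did not match the SNAI1-bound E-box CAGGTG (20.6% of all windows), an EGR site (GCGTGGGCG or GCGGGGGCG, 5.77%) or an E2F site (TTTCCCGC or TTTGGCGC, 2.27%). The window matched to RB1 (chr13:48476200-48476499, plus strand, GC content 38.3%) held none of these either. Whether that window lies at the main start of RB1 was not checked, so it does not speak for the RB1 promoter. Of the 4 MDM2 windows, the 2 at the downstream start, including the one shown, held 1 such E-box each, and the 2 at the upstream start held 1 E2F site each. A p53 half-site (RRRCWWGYYY, with R for A or G, W for A or T and Y for C or T) matched 6.63% of all windows. Among the 9 windows it matched only that of RB1, and none of CDKN1A or MDM2. Half-sites with a mismatch were not searched. These matches describe letters in the windows and not binding.

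Median intensity lay between 232 and 238 on the 6 arrays. S100A10 intensity, read as the check of the hairpins, was 88860.2 and 92938 with shNCT, 1969 and 1545 with shS100A10_1, and 13565 and 9460.5 with shS100A10_5. Both shS100A10_5 arrays stood apart on the first principal component (45.2% of the variance), replicate 2 at 41.1 and replicate 1 at 18.7, with the 4 other arrays between -18.2 and -10.03. All 8 measured genes of 9 mesenchymal markers lay above the median probe set level, 6 of them above the upper quartile. Of 5 measured luminal markers, KRT19 lay above the upper quartile, EPCAM above the median, GATA3 below it, and FOXA1 and CDH1 below the lower quartile. Of 5 measured leukocyte markers, CD68 lay above the upper quartile, PTPRC, CD3E and CD14 below the median and ITGAM below the lower quartile. The summed intensity of the luminal markers, 5 of 8 measured (ESR1, PGR and ERBB2 are not analysed here) ran from 13848 to 15149.9 with shNCT, 12079 to 13722 with shS100A10_1 and 8281 to 10599.6 with shS100A10_5. For the leukocyte markers, 5 of 6 measured, the sums were 6473 to 6716, 7489.9 to 7968 and 4512 to 5976; no marker was at 0. The part of these markers in the results was not tested.

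CDKN1A, which encodes the inhibitor p21, was higher than in control cells with one hairpin and lower with the other. Its intensity was 1129.7 and 1218 with shNCT, 1974 and 1475 with shS100A10_1, and 456 and 345 with shS100A10_5. The 3 groups did not overlap: both shS100A10_1 arrays lay above both controls, and both shS100A10_5 arrays below them. On the log2 scale the levels were 10.20 ± 0.08, 10.74 ± 0.30 and 8.63 ± 0.29 (SD, n = 2 each). The difference from shNCT was 0.54 (SE 0.21), or 1.45-fold higher, with shS100A10_1, and -1.57 (SE 0.21), or 2.96-fold lower, with shS100A10_5. Between the hairpins CDKN1A differed by -2.11 (SE 0.21), or 4.30-fold, which ranked 6 by size among the 16965 probe sets; this is the contrast the gene was chosen for. Among the same probe sets it ranked 28 by size for shS100A10_5 and 807 for shS100A10_1, each against shNCT.

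With any 1 array left out, the CDKN1A difference between hairpins ran from -2.32 to -1.90. The difference of shS100A10_5 from shNCT ran from -1.77 to -1.36, the latter without shS100A10_5 replicate 2, the array farthest out. That of shS100A10_1 ran from 0.33, without shS100A10_1 replicate 1, to 0.75, without shS100A10_1 replicate 2. Since the arrays of the groups do not overlap, the sign could not turn in these fits.

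**Figure D1:**
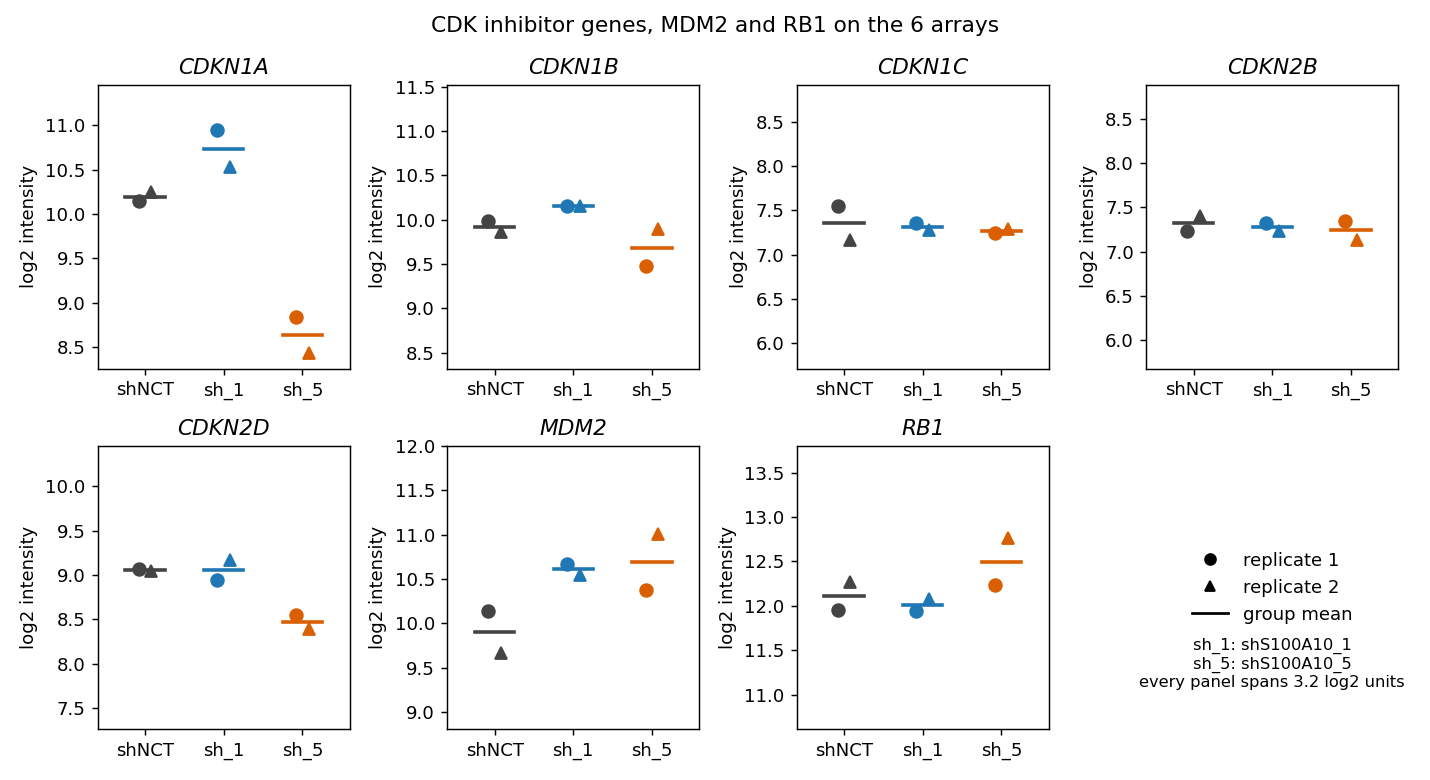
Log2 intensity (y axis) of the 7 measured genes by group (x axis); circles are replicate 1, triangles replicate 2, bars the mean of 2 arrays, and all panels span the same log2 range. CDKN1A separates into 3 levels, with means of 10.20, 10.74 and 8.63, CDKN2D is lower with shS100A10_5 alone among the groups, and CDKN1C and CDKN2B lie level across the groups.

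CDKN1B, encoding p27, had a pattern of the same signs but smaller size. Its intensity was 1013 and 927 with shNCT, 1138 and 1141 with shS100A10_1, and 711 and 949.6 with shS100A10_5. Both shS100A10_1 arrays lay above the controls, while the shS100A10_5 arrays were unlike each other and replicate 2 lay within the control range. The log2 difference was 0.23 (SE 0.19; limma, adjusted p = 0.813) with shS100A10_1 and -0.24 (SE 0.19; limma, adjusted p = 0.519) with shS100A10_5, with 95% intervals of -0.19 to 0.66 and -0.66 to 0.18. Between the hairpins CDKN1B differed by -0.47 (SE 0.19), and by -0.68 without shS100A10_5 replicate 2 or -0.26 without replicate 1.

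CDKN1C, the imprinted p57 gene, had an intensity of 188 and 144 with shNCT, 164 and 155 with shS100A10_1, and 152 and 156 with shS100A10_5. All 4 hairpin arrays lay between the 2 controls. Its log2 differences were -0.04 (95% interval -0.46 to 0.37) and -0.09 (-0.51 to 0.32), with SE 0.19 and limma adjusted p = 0.981 and 0.821. Differences within these intervals are not excluded by these arrays. The intervals are no detection limit. With 2 arrays a group larger differences, such as 0.79 for MDM2 with shS100A10_5, did not pass the threshold either.

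Of the INK4 genes, CDKN2D stood lower with shS100A10_5 and CDKN2B did not stand apart in any group. CDKN2D, encoding p19, an inhibitor of CDK4 and CDK6, had an intensity of 535 and 526 with shNCT, 491 and 574 with shS100A10_1, and 373 and 336 with shS100A10_5. The shS100A10_1 arrays lay on either side of the controls, and both shS100A10_5 arrays lay below all 4 others. The log2 difference of shS100A10_5 from shNCT was -0.58 (SE 0.17, 95% interval -0.97 to -0.20), or 1.498-fold lower, and did not pass the threshold (limma, adjusted p = 0.0953). With shS100A10_1 it was 0.001 (SE 0.17, interval -0.39 to 0.39; limma, adjusted p = 0.9996). The hairpins differed by -0.58 (SE 0.17), between -0.70 and -0.47 with 1 array left out.

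CDKN2B encodes p15, the INK4 inhibitor known to be induced by TGF-beta, and lies beside CDKN2A. Its intensity was 151 and 169 with shNCT, 159.9 and 151 with shS100A10_1, and 163 and 141 with shS100A10_5, so all groups overlapped. The log2 differences were -0.04 and -0.08 (SE 0.17 for both), not past the threshold (limma, adjusted p = 0.982 and 0.845), with 95% intervals of -0.43 to 0.35 and -0.46 to 0.31. The table has no detection calls, so whether this signal lies above background could not be read.

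MDM2, the ubiquitin ligase that restrains p53, was brighter than the controls on all 4 hairpin arrays. Its intensity was 1131 and 814 with shNCT, 1633 and 1496 with shS100A10_1, and 1324 and 2064 with shS100A10_5. The lowest hairpin array, shS100A10_5 replicate 1, lay above the higher control, and replicate 2 was the highest of all. The log2 differences were 0.70 (SE 0.24, 1.63-fold) with shS100A10_1 and 0.79 (SE 0.24, 1.72-fold) with shS100A10_5, and neither passed the threshold (limma, adjusted p = 0.428 and 0.104). Their 95% intervals ran from 0.17 to 1.24 and from 0.25 to 1.32. Both comparisons use the same 2 controls, whose log2 levels were 10.14 and 9.67 (SD 0.34). Without shNCT replicate 2 the differences were 0.47 and 0.55, and without replicate 1 they were 0.94 and 1.02. The shS100A10_5 difference was 0.47 without shS100A10_5 replicate 2, and 1.11 without replicate 1, where it passed (limma, adjusted p = 0.0475). It also passed when the variance prior followed intensity (limma, adjusted p = 0.0384). The hairpins differed from each other by 0.08 (SE 0.24).

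RB1, the pocket protein that binds E2F factors, had an intensity of 3956 and 4936 with shNCT, 3944 and 4309 with shS100A10_1, and 4827 and 6934 with shS100A10_5. The groups overlapped with the controls, and shS100A10_5 replicate 2 was the brightest array. The log2 difference was -0.10 (SE 0.21, 95% interval -0.58 to 0.38; limma, adjusted p = 0.949) with shS100A10_1 and 0.39 (SE 0.21, interval -0.09 to 0.86; limma, adjusted p = 0.334) with shS100A10_5. Without shS100A10_5 replicate 2 the latter was 0.13. Between the hairpins RB1 differed by 0.49 (SE 0.21), or by 0.23 without that array.

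**Figure D2:**
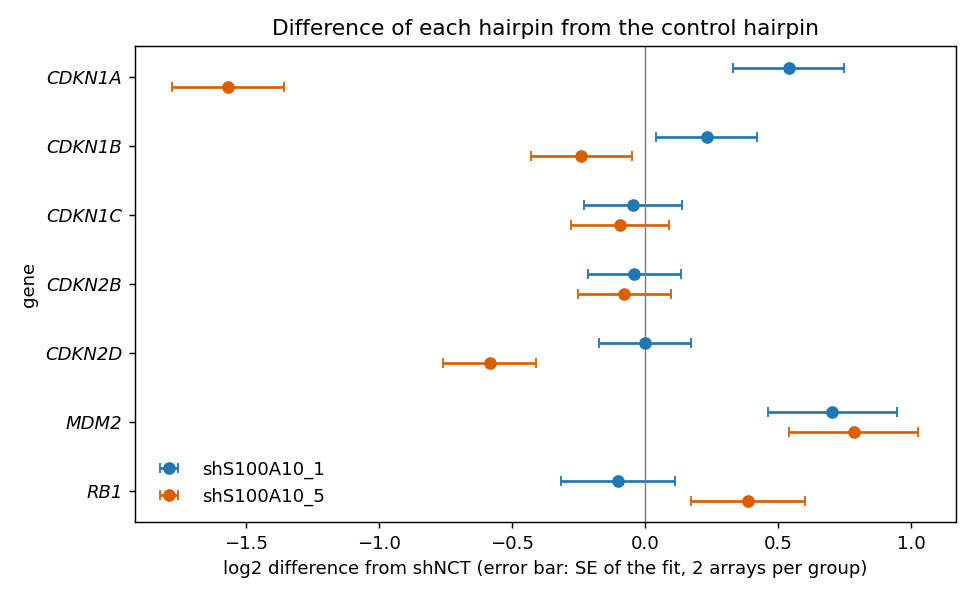
Log2 difference from shNCT (x axis) of each measured gene (y axis) with shS100A10_1 in blue and shS100A10_5 in orange; points are fitted differences from 2 arrays per group and bars are the SE. CDKN1A lies at 0.54 and -1.57, MDM2 at 0.70 and 0.79, and the bars of CDKN1C and CDKN2B include 0 for both hairpins.

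Counted together, 0 of the 6 tested genes passed with shS100A10_1 (limma, adjusted p under 0.05), where 0.189% of all probe sets passed, and 0 with shS100A10_5, where 3.18% passed. By limma's unadjusted p under 0.05, 1 of 6 was higher with shS100A10_1 (MDM2), against 8.44% of all probe sets in either direction. With shS100A10_5 MDM2 was higher and CDKN2D lower at that level, 2 of 6, against 21% of all probe sets. Arrays of hairpin and control were fully separated for 2 of 6 with shS100A10_1 (CDKN1B and MDM2), against 42.4% of all probe sets, and for 2 of 6 with shS100A10_5 (CDKN2D and MDM2), against 50.5%. The median log2 difference of the 6 was -0.02 and -0.08, and over all genes it was 0.01 and 0.02.

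The pathway around these inhibitors was read from 7 lists grouped by function and put together with earlier results of these arrays known, holding 132 genes of which 119 were measured. With shS100A10_1, 0 of the 119 passed (limma, adjusted p under 0.05), against 0.189% of all probe sets; at an unadjusted p under 0.05, 4 were higher and 7 lower, against 8.44% of all probe sets in either direction. With shS100A10_5, 5 passed: E2F1, SFN and UBE2C fell, and EGR1 and SNAI1 rose, 2 higher and 3 lower, against 1.43% and 1.75% of all probe sets. At an unadjusted p under 0.05, 15 were higher and 18 lower with shS100A10_5, against 21% of all probe sets in either direction. Without shS100A10_5 replicate 2, or without shNCT replicate 2, 0 of the 119 passed, and without shNCT replicate 1 only SNAI1 did.

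The kinases that the inhibitors act on, and their G1 cyclins, gave no call. Of 17 measured genes, 0 passed with either hairpin by limma; with shS100A10_5 at an unadjusted p under 0.05, 3 were higher and 4 lower, against 21% of all probe sets, and the list's median was -0.20. CCNE1, encoding the cyclin E1 that activates CDK2, had an intensity of 521 and 575 with shNCT, 676 and 587 with shS100A10_1, and 352 and 355 with shS100A10_5. CCND2, a D-type cyclin gene, ran the other way, with 359.9 and 272, then 242 and 208, then 414 and 507. Neither passed against shNCT: for shS100A10_5 CCNE1 differed by -0.63 (SE 0.17; limma, adjusted p = 0.075) and CCND2 by 0.55 (SE 0.20; limma, adjusted p = 0.154). The difference between the hairpins passed for both genes, at -0.83 for CCNE1 (limma, adjusted p = 0.0354) and 1.03 for CCND2 (limma, adjusted p = 0.0284), where 2.91% of all probe sets passed. CDK6, a target kinase of the INK4 proteins, had log2 differences of -0.04 and 0.63, and CCNA1, the cyclin A1 gene, of 0.83 and -0.24, all with limma adjusted p between 0.221 and 0.989. CDK4, the other target kinase of the INK4 proteins, had differences of -0.21 and -0.57, opposite in sign to CDK6 with shS100A10_5.

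Among 19 pocket protein and E2F genes the medians were -0.05 and 0.01, and E2F1, an activator of S-phase genes that RB1 restrains, was the 1 gene that passed. E2F1 intensity was 2019 and 2199 with shNCT, 1666 and 1697 with shS100A10_1, and 984 and 691 with shS100A10_5, 3 levels with no overlap. It fell by 1.35 with shS100A10_5 (SE 0.20; limma, adjusted p = 0.0107) and had a difference of -0.33 with shS100A10_1 (limma, adjusted p = 0.733). E2F8, a repressive family member, differed by -0.28 and -0.72 (limma, adjusted p = 0.747 and 0.0619), E2F3 by -0.40 and 0.03, and RBL2, the pocket protein p130, by 0.33 and 0.13.

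Among genes that p53 is known to activate, SFN passed with shS100A10_5. Besides CDKN1A and MDM2, 29 of 33 were measured, with medians of 0.04 for both hairpins; 0 passed with shS100A10_1 and 1 with shS100A10_5. At an unadjusted p under 0.05 by limma, 2 were lower and 0 higher with shS100A10_1 (8.44% of all probe sets in either direction), and 4 were lower and 4 higher with shS100A10_5 (21%). SFN, encoding the G2 checkpoint protein 14-3-3 sigma, had an intensity that was 12034 and 13089 with shNCT, 13015 and 12747 with shS100A10_1, and 6248 and 4759.6 with shS100A10_5. SFN fell by 1.20 with shS100A10_5 (SE 0.19; limma, adjusted p = 0.0133), its shS100A10_1 arrays lay within the control range, and the hairpins differed by -1.24 (limma, adjusted p = 0.0117). The stress gene SESN1 differed by -0.44 and -0.79 (limma, adjusted p = 0.557 and 0.0532), the DNA repair gene XPC by 0.18 and -0.85 (0.923 and 0.122), and the p53 phosphatase gene PPM1D by -0.41 and -0.16 (0.539 and 0.622). Other targets had the opposite sign with shS100A10_5, among them FAS at 0.74 and GADD45A at 0.60, neither past the threshold. Of the 29, 17 had a positive and 12 a negative difference with shS100A10_5. Of 14 measured p53 regulators of 16, 0 passed with either hairpin. The 2 with the largest differences were the nuclear body gene PML, at 0.50 and 0.69 (limma, adjusted p = 0.494 and 0.0762), and the checkpoint kinase gene ATR, at -0.64 and -0.75 (limma, adjusted p = 0.614 and 0.188).

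Genes for the ubiquitin ligases and cofactors that remove p21 and p27 were all measured (16), with medians of 0.0003 and -0.11. UBE2C, the ubiquitin-conjugating enzyme of the anaphase-promoting complex, had an intensity of 7501 and 8203 with shNCT, 7080.1 and 6556 with shS100A10_1, and 4754 and 4498 with shS100A10_5. It fell by 0.76 with shS100A10_5 (SE 0.17; limma, adjusted p = 0.0425), and its difference from shNCT was -0.20 with shS100A10_1 (limma, adjusted p = 0.82). The call with shS100A10_5 was lost with array weights (limma, adjusted p = 0.0696), in a fit of only the groups compared (limma, adjusted p = 0.0566) and without any 1 of the 6 arrays (limma, adjusted p from 0.0506 to 0.255). CKS1B, a cofactor of the SKP2 ligase that targets p27, differed by -0.37 and -0.60 (limma, adjusted p = 0.614 and 0.0897), and the ligase scaffold gene CUL1 by -0.70 and -0.01 (limma, adjusted p = 0.218 and 0.978).

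Of 23 listed regulators of CDKN1A, 20 were measured, with medians of -0.08 and 0.18; 0 passed with shS100A10_1 and 2 with shS100A10_5. EGR1 and SNAI1 rose with shS100A10_5, opposite in sign to CDKN1A on the same arrays. EGR1, an immediate early transcription factor, had an intensity of 11241 and 11936 with shNCT, 6501 and 7157 with shS100A10_1, and 20114 and 33649.8 with shS100A10_5. It rose by 1.17 with shS100A10_5 (SE 0.23; limma, adjusted p = 0.0336), had a difference of -0.76 with shS100A10_1 (limma, adjusted p = 0.357), and differed by 1.93 between the hairpins (limma, adjusted p = 0.00528). SNAI1, a zinc finger repressor, was dim in control cells, at 60.4 and 50.5, with 37.5 and 37.3 for shS100A10_1 and 162 and 213 for shS100A10_5. It rose by 1.75 with shS100A10_5 (SE 0.19; limma, adjusted p = 0.00563) and had a difference of -0.56 with shS100A10_1 (limma, adjusted p = 0.428).

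On the 9p21 arm around CDKN2B, 5 of 9 listed genes were measured and 0 passed against shNCT by limma; at an unadjusted p under 0.05, 1 was higher with shS100A10_1 and 1 lower with shS100A10_5, against 8.44% and 21% of all probe sets in either direction. MTAP, a methionine salvage enzyme gene next to CDKN2A and CDKN2B, had an intensity of 17.5 and 19.3 with shNCT, 26.2 and 24.97 with shS100A10_1, and 14.8 and 12.9 with shS100A10_5, with a mean below the lower quartile of all probe sets. It differed by 0.48 and -0.41 from shNCT (limma, adjusted p = 0.448 and 0.209) and by -0.89 between the hairpins (limma, adjusted p = 0.027). FOCAD (-0.19 and -0.38) and MLLT3 (0.39 and 0.02) did not pass either. As for CDKN2B, whether the MTAP signal lies above background could not be read. Whether the loss of the CDKN2A locus reaches CDKN2B or MTAP in these cells was not tested.

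**Figure D3:**
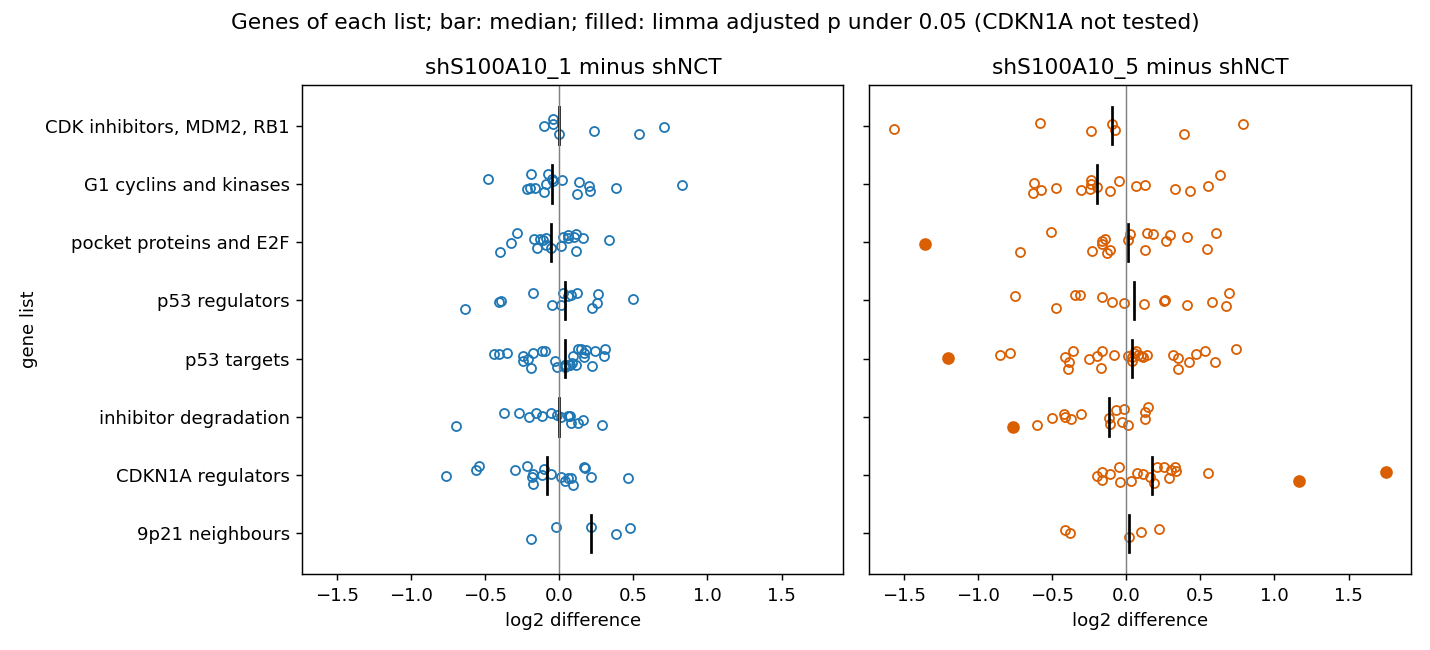
Log2 difference from shNCT (x axis) of each measured gene by list (rows), with shS100A10_1 on the left and shS100A10_5 on the right; bars are list medians and filled points passed limma at an adjusted p under 0.05, with CDKN1A in the top row not tested. No point is filled for shS100A10_1, and 5 are for shS100A10_5: E2F1, SFN, UBE2C, EGR1 and SNAI1.

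The genes most like CDKN1A over the arrays were found by the root mean square distance between log2 values over the 6 arrays, each gene taken relative to its shNCT mean. BTD, the biotinidase gene, was nearest at 0.20, followed by the histone gene H2AC21 (0.25), the splicing gene SNRPE (0.29), the nucleoside transporter gene SLC29A2 (0.32), MAGED1 (0.34) and ETFB (0.35), against a median of 1.01 over 15668 genes. These distances describe the 6 arrays and carry no test. All of these genes were lower with shS100A10_5, by log2 differences from shNCT between -1.68 (H2AC21) and -1.21 (ETFB). With shS100A10_1 their differences from shNCT ran from 0.07 (MAGED1) to 0.37 (SNRPE), below the 0.54 of CDKN1A. No member of the 7 pathway lists was among them. The lists hold only 119 of the 15669 measured genes, so this was likely beforehand and says little about the pathway.

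**Figure D4:**
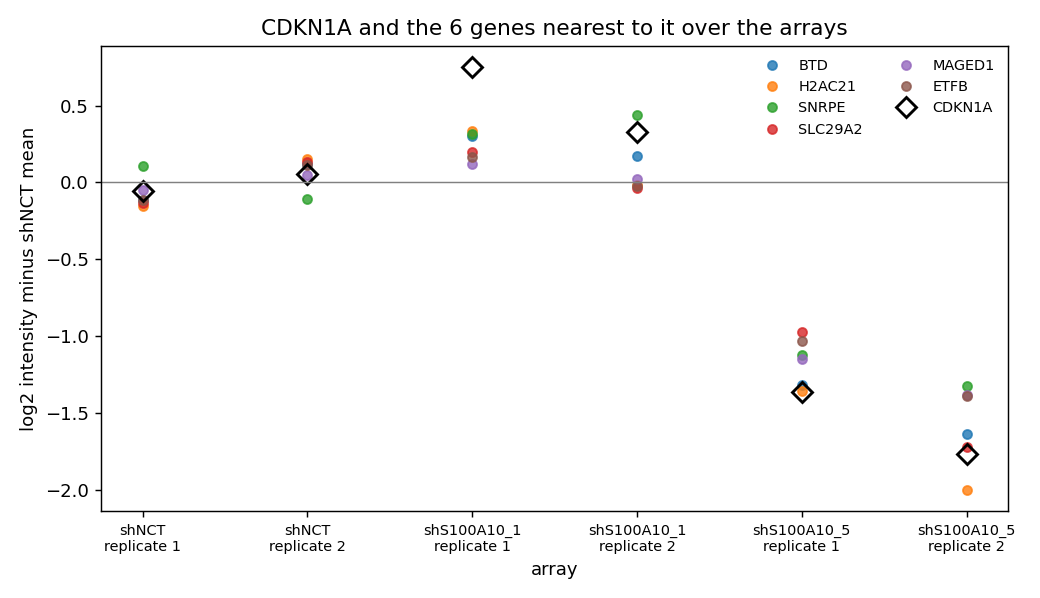
Log2 intensity minus the shNCT mean (y axis) on each of the 6 arrays (x axis) for CDKN1A (open diamonds) and the 6 genes nearest to it (coloured points). All lie well below 0 on both shS100A10_5 arrays, and CDKN1A lies highest on shS100A10_1 replicate 1.

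The dependence of the 3 genes that stood farthest from shNCT on the fit is shown by the plot of differences under each processing setting. Over the reported fit and 15 alternatives, the CDKN2D difference with shS100A10_5 ran from -0.66 to -0.51, and that of MDM2 from 0.47 to 0.94 with shS100A10_1 and from 0.47 to 1.11 with shS100A10_5. Most of these alternatives change the estimate of spread and leave the difference as it is, and leaving out 1 array cannot turn a sign where the groups do not overlap, so these ranges show sizes only.

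**Figure D5:**
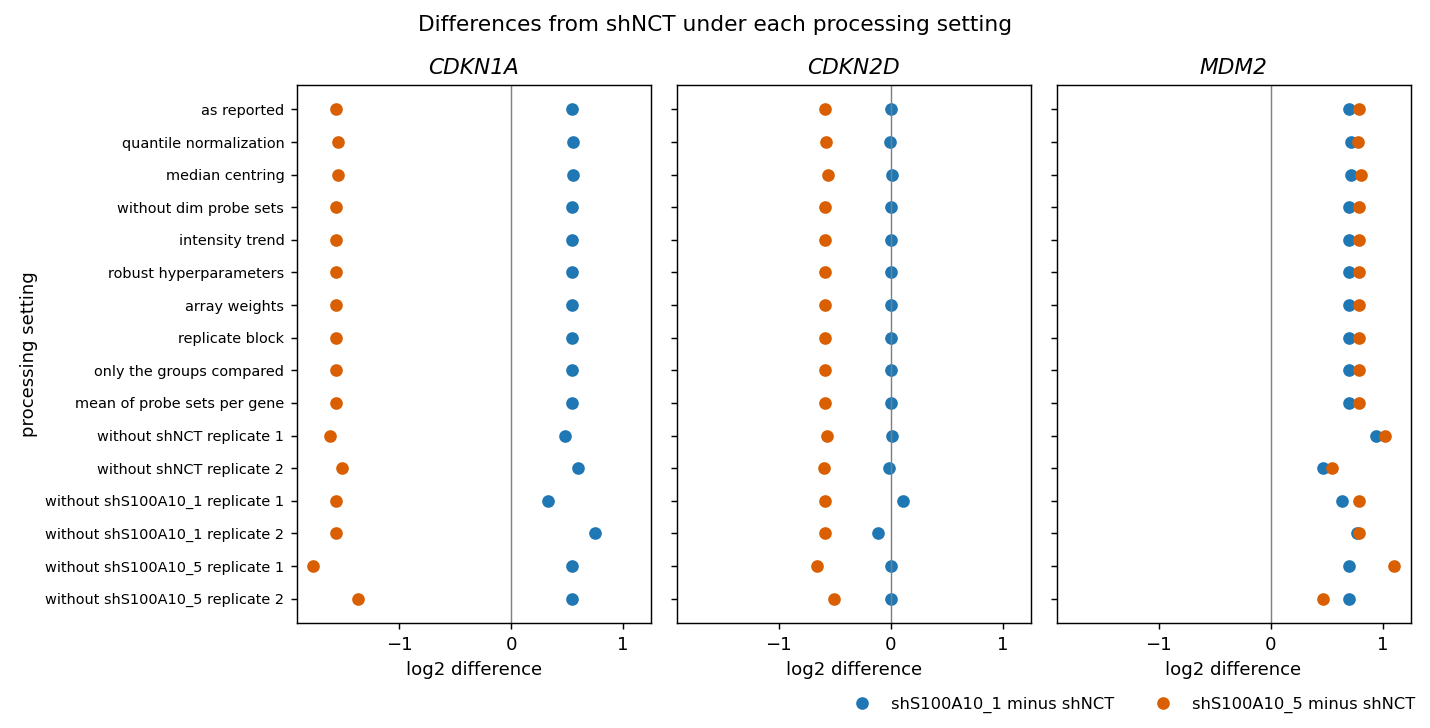
Log2 difference from shNCT (x axis) of CDKN1A, CDKN2D and MDM2 with shS100A10_1 (blue) and shS100A10_5 (orange) under the reported fit and 15 alternatives (rows). Points move most where 1 array is left out, farthest for MDM2 with shS100A10_5, from 0.47 to 1.11.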

How the data were processed

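Gene expression was measured on whole-transcript cartridge arrays with biotin labelling, per the labels' protocols. The deposited table gives a normalized, linear intensity for each probe set on each array, made by the authors with Transcriptome Analysis Console per the submitters' processing notes; version, background correction, summarization and normalization were not stated in those notes or the labels. The deposited values are log2 values raised to a linear scale (largest deviation from 5 decimals 7.13e-10). Detection calls and scan dates were not used here. Unequal normalization between arrays would shift all genes of an array, so quantile normalization and median centring were tried.

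All 15669 gene symbols of the platform annotation were matched to the RefSeq table of GRCh38.p14, and 1291 probe sets had none. Intensities were converted to log2 and fitted with a mean per group over all 6 arrays in limma 3.58.1 (R 4.3.3, lmFit and eBayes; 3 residual and 7.16 prior degrees of freedom), tested in both directions and adjusted by Benjamini-Hochberg over 16965 probe sets with a threshold of 0.05. The number of arrays limits the precision. The members and lists were chosen with earlier results of these data known. Named were all members, the 6 genes nearest to CDKN1A, and, per pathway list, each gene past the threshold against shNCT plus the 2 largest differences per hairpin, on the brightest probe set per gene. A few further list genes are named where their sign was opposite to that of the genes so chosen.

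Alternatives were quantile normalization, median centring, dropping the dimmest 25% of probe sets, eBayes with an intensity trend or robust hyperparameters, a block for the replicate number, array weights, only the groups compared, the mean of probe sets per gene, and each array left out.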

Additional observations from a re-analysis of the deposited data

Results flagged for a closer look

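For CDKN1A, CDKN1B and RB1, every array of one hairpin lay above the shNCT mean and every array of the other below it. Only for CDKN1A were both hairpins also separate from the control arrays. CDKN1B overlapped them with shS100A10_5, and RB1 with both hairpins. How many of all probe sets share this pattern was not counted. For CDKN1A the log2 difference of shS100A10_5 minus shS100A10_1 was -2.11, for CDKN1B -0.47 and for RB1 0.49; these differences were not tested, since the genes were chosen with this contrast known. The pathway lists, too, were put together with earlier results of these arrays known, so their count and p-values are no independent check. Of the 119 measured pathway list genes, the difference between the hairpins itself passed limma's threshold for 7, against 2.91% of all probe sets. It was -1.03 for E2F1 (limma, adjusted p = 0.0275), -1.24 for SFN and -0.83 for CCNE1, lower with shS100A10_5. It was 2.31 for SNAI1 (limma, adjusted p = 0.00102), 1.93 for EGR1 and 1.03 for CCND2, higher with shS100A10_5. For MTAP, a dim probe set, it was -0.89.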

How the results depend on the processing

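No member and no pathway list gene passed with shS100A10_1 under any of the 15 alternatives. With shS100A10_5, 1 member (MDM2) passed with an intensity trend. With 1 array left out, the members that passed ran from 0 to 1, the list genes from 0 to 8 and all probe sets from 3 to 994; for shS100A10_1 all probe sets that passed ran from 8 to 16. The reported counts were 5 list genes, 539 probe sets and 32 probe sets. The filter on dim probe sets gave 9 list genes, 952 probe sets and 60 for shS100A10_1, with fewer features tested. The intensity trend gave 17, 1454 and 98. Array weights gave 242 probe sets for shS100A10_5 and 89 for shS100A10_1, and fitting only the groups compared gave 16 for shS100A10_1; the cause was not tested.

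The replicate number as a block gave 0 members for either hairpin, 6 list genes and 625 probe sets for shS100A10_5, and 33 probe sets for shS100A10_1. SESN1 was the named gene whose call the block changed (limma, adjusted p = 0.0457). Deviations of same-numbered arrays correlated at -0.02, -0.03 and 0.19 across probe sets, the last between the hairpins, and the labels tie no number to a shared culture or day, so the numbers were not taken as pairs.

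Signs turned for differences that passed in no fit. Quantile normalization gave -0.0078 for CDKN2D (shS100A10_1) and -0.0062 for MLLT3 (shS100A10_5), and median centring gave 0.0056 for CUL1 (shS100A10_5). With 1 array left out, the shS100A10_1 differences ran from -0.24 to 0.15 for CDKN1C, -0.12 to 0.041 for CDKN2B, -0.11 to 0.11 for CDKN2D, -0.26 to 0.059 for RB1, -0.42 to 0.34 for CDK6, -0.023 to 0.098 for SFN and -0.026 to 0.39 for XPC. Those of shS100A10_5 ran from -0.29 to 0.10 for CDKN1C, -0.18 to 0.029 for CDKN2B, -0.66 to 0.19 for CCNA1, -0.092 to 0.067 for CUL1, -0.12 to 0.17 for E2F3, -0.12 to 0.16 for MLLT3 and -0.20 to 0.45 for RBL2.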

Other observations

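The genes next to the 7 measured members on their chromosomes, 2 on each side by RefSeq order among the measured genes, were read as a group chosen after earlier results were known. None of these 28 neighbours passed against shNCT by limma with either hairpin (0.189% and 3.18% of all probe sets passed), and 2 (shS100A10_1) and 6 (shS100A10_5) had an unadjusted p under 0.05, against 8.44% and 21% of all probe sets. Of the 4 neighbours of CDKN1A, the kinase gene STK38 differed from shNCT by 0.05 with shS100A10_5, the splicing factor gene SRSF3 by 0.13, RAB44 by 0.30 and CPNE5 by -0.23 (limma, adjusted p between 0.366 and 0.913), against -1.57 for CDKN1A. CPNE5 had the signs of CDKN1A, with 0.38 for shS100A10_1 (limma, adjusted p = 0.734) and -0.60 between the hairpins (limma, adjusted p = 0.191), whose arrays did not overlap. Its shS100A10_1 intensities, 45.9 and 74.1, overlapped the controls at 41.0 and 49.3. CPNE5 and RAB44 were dim, with mean log2 levels of 5.54 and 5.90, below the median probe set (7.88). The 4 neighbours of CDKN2D differed with shS100A10_5 by -0.44 (ATG4D), -0.18 (KRI1), 0.10 (AP1M2) and -0.28 (SLC44A2).

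Between the hairpins 3 of the 28 passed by limma, against 2.91% of all probe sets, 1 higher and 2 lower with shS100A10_5. SLC35E3, next to MDM2, had an intensity of 893 and 1073 with shNCT, 1414 and 1631 with shS100A10_1, and 663 and 701 with shS100A10_5, so that the hairpins differed by -1.16 (limma, adjusted p = 0.0135) where MDM2 differed by 0.08. RCBTB2, near RB1, differed by 1.02 (limma, adjusted p = 0.0366), and the third was MTAP. Both were dim: RCBTB2 had a mean log2 level of 5.71, below the median probe set (7.88), and MTAP lay below the lower quartile. RCBTB2 intensity was 48 and 43.5 with shNCT, 33.5 and 46.1 with shS100A10_1, and 69.7 and 91.6 with shS100A10_5.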
